A study of Mus musculus with 24 samples.

Results

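The genes described are those of the cytosolic ribosomal proteins, as measured by microarray in the ventral prostate of 6 inbred mouse strains. A probe set, the group of short probes that reads 1 transcript on the array, was taken when its annotation gave a single gene symbol beginning with Rpl or Rps and a digit, or the symbol Rpsa. Kinase genes whose symbols begin with Rps6k and symbols marked as pseudogenes were left out. This rule used names and no measured value. It took 98 of 22690 probe sets, which read 46 of the 12394 genes named alone on a probe set, 22 of the small subunit (Rps, with Rpsa) and 24 of the large subunit (Rpl). A probe set was tested when it lay above its array's 40th percentile of intensity on at least 4 arrays, and 87 of the 98 probe sets, for 43 of the 46 genes (21 Rps and 22 Rpl), did so.

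Ventral prostates came from wild-type mice of the strains BALB/c, C57BL/6, AKR, SWR, 129X1 and FVB. The mice were 8 weeks old, untreated and kept on standard diet, and each strain gave 4 arrays labelled as biological replicates, 24 in all. The labels do not say whether a replicate was 1 mouse or a pool. The series set out to relate the expression of parental strains to modifiers of cancer. The tissue is whole ventral prostate, so that fewer cells of a type and less RNA per cell cannot be told apart in any value below.

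Ribosomal proteins assemble with ribosomal RNA into the small subunit, which reads the message, and the large subunit, which forms the peptide bond. Their genes are transcribed at high rates in growing and in secretory cells, and their messages typically begin with a cytosine followed by a run of pyrimidines, the TOP motif, through which the kinase complex mTORC1 and the RNA-binding protein Larp1 govern their translation. Several genes have a paralog whose protein can take the place of the usual subunit or that is used in particular tissues. In people, loss of 1 copy of one of several of these genes causes Diamond-Blackfan anaemia, and free ribosomal proteins such as Rpl11 bind Mdm2 and so raise p53.

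RefSeq start sites were at hand for 40 of the 46 genes, in 48 windows of 250 bases before and 50 bases from the annotated start on. The windows below are shown for the genes to which the strain differences turn most often, with 30 bases before the start and 20 from it on, 5′ to 3′ on the gene's strand, build GRCm38.p6. Capitals mark the annotated start base and the unbroken run of C or T that follows it.
Rps6 (chr4:86857348-86857397, minus strand): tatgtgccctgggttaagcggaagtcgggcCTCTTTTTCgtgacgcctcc
Rpl35 (chr2:39005112-39005161, minus strand): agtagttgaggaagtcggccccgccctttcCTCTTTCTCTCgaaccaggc
Rpl38 (chr11:114668550-114668599, plus strand): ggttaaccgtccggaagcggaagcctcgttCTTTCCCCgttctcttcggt
Rpl22, start 1 (chr4:152324406-152324455, plus strand): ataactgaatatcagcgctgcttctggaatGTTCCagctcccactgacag
Rpl22, start 2 (chr4:152325696-152325745, plus strand): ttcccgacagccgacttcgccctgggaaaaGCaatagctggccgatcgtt
Rpl22l1 (chr3:28805478-28805527, plus strand): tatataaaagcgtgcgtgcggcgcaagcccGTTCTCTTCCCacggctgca
Rps27l, start 1 (chr9:66946056-66946105, plus strand): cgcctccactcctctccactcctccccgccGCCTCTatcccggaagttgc
Rps27l, start 2 (chr9:66946383-66946432, plus strand): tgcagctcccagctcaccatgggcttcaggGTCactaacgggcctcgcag
Rps9 (chr7:3704011-3704060, plus strand): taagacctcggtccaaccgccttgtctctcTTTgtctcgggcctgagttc
Rps6, Rpl35 and Rpl38 start with the cytosine and pyrimidine run of the TOP motif at the annotated base, whereas the annotated starts of Rpl22, Rpl22l1 and Rps27l are a G and that of Rps9 is a T.

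Over all 48 windows, 7 (14.6%) began with C and then 4 bases of C or T, as did 2.51% of all 32851 RefSeq windows. The 7 genes were Rpl14, Rpl35, Rpl38, Rps10, Rps18, Rps27 and Rps6. The letters CCGGAAG, the core of the site of Ets factors such as Gabpa, stood on either strand in 20 ribosomal windows (41.7%) and in 8.86% of all windows. AAGATGG, the core letters of the Yy1 site, stood on either strand in 7 (14.6%) and in 6.34% of all windows, and TATAAA, the TATA box, in 5 (10.4%) and in 13.6% of all windows. These counts describe letters at annotated starts, and the starts used in prostate were not measured here.

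Values are intensities computed by MAS5, rescaled so that the 2% trimmed mean of every array is 98.7. As deposited, those means lay between 91.4 and 95.0 on BALB/c arrays and between 97.0 and 105 on the other 20. Differences are on the log2(intensity + 16) scale, which understates the change of dim probe sets. The number of arrays limits the precision. Of 6 luminal epithelial genes measured (Spink1, Pbsn, Msmb, Hoxb13, Krt8 and Krt18), all passed the filter, with a summed intensity of 33367 to 37148 on BALB/c arrays and 15096 to 28152 on the others. In BALB/c 5 of the 6 were called higher and 1 lower. Of 6 markers of seminal vesicle and other lobes on the array, Pate4, Svs2, Svs4 and Svs6 stayed under the filter. The other 2 passed it, with a summed intensity of 65.1 to 95.5 in BALB/c and 43.4 to 111 elsewhere, and had no call in any strain. The summed intensity of 5 basal markers was 251 to 292 in BALB/c and 262 to 299 in C57BL/6, against 379.6 to 924 in the other 4 strains. That of 8 smooth muscle genes was 4468 to 4559 in BALB/c, against 5139 to 12140 elsewhere. Of 5 adipocyte markers tested, 4 were higher in BALB/c and 3 in FVB (summed intensity 481 to 3714 in BALB/c, against 204 to 3875 elsewhere), and of 8 skeletal muscle markers 2 were lower (327 to 534, against 399.6 to 2441). The array's control probe sets for 18S ribosomal RNA read 8.96 to 11.17 on the log2 scale in BALB/c and 5.90 to 10.70 in the other strains. The log2 difference between the 3′ and 5′ control probe sets of Actb, a measure of RNA quality, was 0.24 to 0.80 in BALB/c and 0.13 to 0.50 elsewhere, while that of Gapdh was -0.096 to 0.017 in BALB/c, within the -0.39 to 0.22 of the other strains.

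With trimmed-mean scaling, strain means of most of the 43 tested genes differed, by a median amount close to that of all genes on the array. With 1 probe set a gene, the one with the highest mean, 28 of 43 genes passed the F test among the 6 strains (limma, Benjamini-Hochberg adjusted p under 0.05), beside 35% of all 9431 genes tested. Over probe sets, 55 of 87 passed, beside 36.4% of all 15775. The count of genes passing was 22 with the intensities as deposited and 15 after quantile normalization. It was 16 with cyclic loess and 16 with the 18S control level as a covariate. The share of all genes passing was not counted in these fits, which are described below. The median gap between the highest and the lowest strain mean was 0.51 for the ribosomal genes and 0.48 for all genes. Among small-subunit genes 11 of 21 passed, and among large-subunit genes 17 of 22. BALB/c held the highest mean for 34 of the 43 genes, and the lowest mean fell to 129X1 for 15 and to AKR for 9. Of the 7 genes with the TOP start given above, Rps6, Rpl14, Rpl35, Rpl38 and Rps18 passed and Rps10 and Rps27 did not. Of the 43 genes, 42 stood above the 40th percentile on all 24 arrays, the exception being the dim Rpl14.

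**Figure D1:**
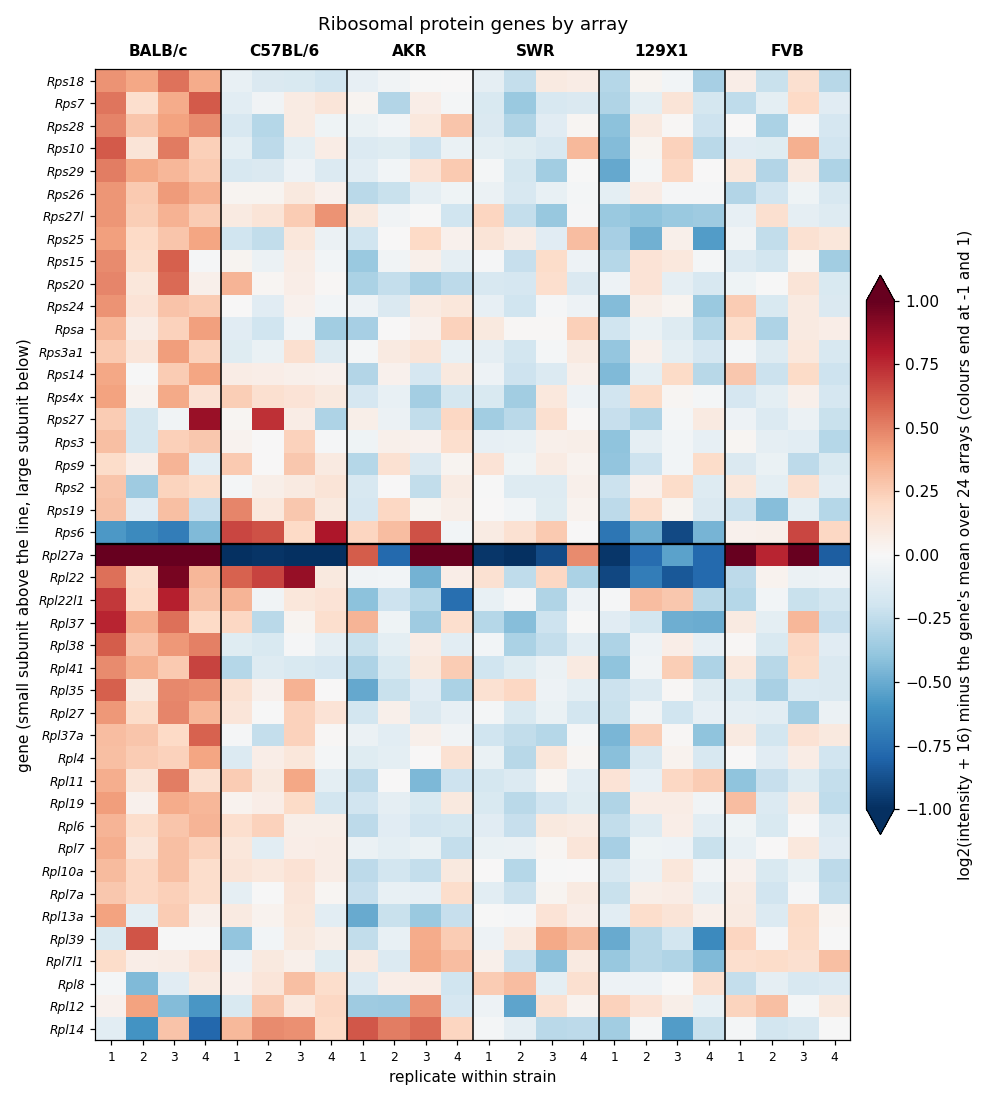
Each row is 1 of the 43 tested genes (small subunit above the line, large subunit below) and each column 1 of the 24 arrays, with the log2 value centred on the gene's mean over the 6 strains and colours ending at -1 and 1. Most rows are warm across the 4 BALB/c arrays, Rps6 is cold in BALB/c and 129X1, and Rpl22 is cold in 129X1 with the trimmed-mean scaling.

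Most of the called genes were called in BALB/c. Against the mean of the other 5 strains, 31 of 43 genes were higher in BALB/c (8.2% of all genes were) and 1, Rps6, was lower (9.16% of all genes were). By subunit these were 15 higher and 1 lower of 21 small-subunit genes, with a median difference of 0.34, and 16 higher of 22 large-subunit genes, with a median of 0.35. The median over the 43 genes was 0.35, and that over all genes 0.00. On each of the 4 BALB/c arrays 34 to 39 of the 43 genes lay above their own mean, compared with 2 to 36 on the other arrays. The 98 probe sets held 6.93% ± 0.46 (SD, n = 4) of the summed intensity on BALB/c arrays and 6.06% ± 0.22 (n = 4) on C57BL/6 arrays. In the remaining 4 strains single arrays lay between 5.10% and 6.15%, below all 4 BALB/c arrays (6.32% to 7.37%).

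That count depended on the scaling. With the intensities as deposited, 21 of 43 genes were higher in BALB/c and 3 lower, with a median of 0.24. After quantile normalization, which gives every array the same distribution, 5 of 43 genes were higher in BALB/c and 3 lower, beside 8.29% and 8.02% of all genes under that scaling, with a median of 0.022 and 24 genes above 0. The 5 were Rpl27a (1.71), Rpl22 (0.52), Rpl22l1 (0.49), Rpl37 (0.48) and Rps25 (0.41), and cyclic loess kept the same 5. With the 18S control level as a covariate 5 genes stayed higher, namely Rpl27 (0.49), Rpl35 (0.43), Rps27l (0.43), Rpl38 (0.41) and Rps26 (0.34), with a median of 0.20 over the 43 genes. The share of all genes called was not counted for the deposited intensities, cyclic loess or the 18S covariate. The counts under them have no background to be read against. None of the 31 genes was called higher by limma in all 4 of the trimmed-mean, quantile, cyclic loess and 18S fits. With the trimmed-mean scaling 33 were higher and 2 lower at an unadjusted p under 0.05, a threshold at which the share of all genes was not counted. Rpl27a, Rpl22, Rpl22l1, Rpl37 and Rps25 were called higher under the trimmed mean, quantile and cyclic loess scalings. With the 18S covariate, itself high in BALB/c, their differences were 0.80, 0.54, 0.53, 0.36 and 0.26, and none was called. Rps6 was lower in BALB/c in each of those 4 fits.

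Among the brightest probe sets, those outside the symbol rule were also higher in BALB/c. Of tested probe sets outside the rule, 384 had a mean of at least 10 on the log2 scale. Their median BALB/c difference was 0.24, and 44.3% were called higher. These others are not free of ribosomal genes. They hold Rplp0, Rplp2 and Fau, and can hold any of 95 tested probe sets that name a ribosomal protein gene among several symbols. How many of the 384 are of that kind was not counted. Ribosomal probe sets above that mean (n = 58) had a median of 0.36, and 81% of them were called higher. In the brightest class, from 12 upwards, the medians were 0.45 for 15 ribosomal probe sets and 0.43 for 36 others. Between 10 and 11, they were 0.38 for 14 ribosomal and 0.13 for 242 other probe sets. In the class from 8 to 10 they parted, with a median of 0.54 for 9 ribosomal probe sets (55.6% called higher) and -0.0035 for 2200 others (14.9%), and after quantile normalization these medians were 0.48 and -0.0054. After quantile normalization the medians from 10 upwards were 0.027 for ribosomal and -0.019 for other probe sets. The trimmed mean and the luminal and smooth muscle sums set every BALB/c array apart from all others. The 18S level, the Actb difference and the basal, adipocyte and skeletal muscle sums overlapped other strains. Median basal sums were 269 in BALB/c and 280 in C57BL/6, and median adipocyte sums 1676 in BALB/c and 2425 in FVB. From 10 upwards the median of other probe sets rose with brightness (0.13, 0.30 and 0.43), and that of ribosomal ones was 0.38, 0.34 and 0.45. The part of any of these in the BALB/c difference was not tested.

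**Figure D2:**
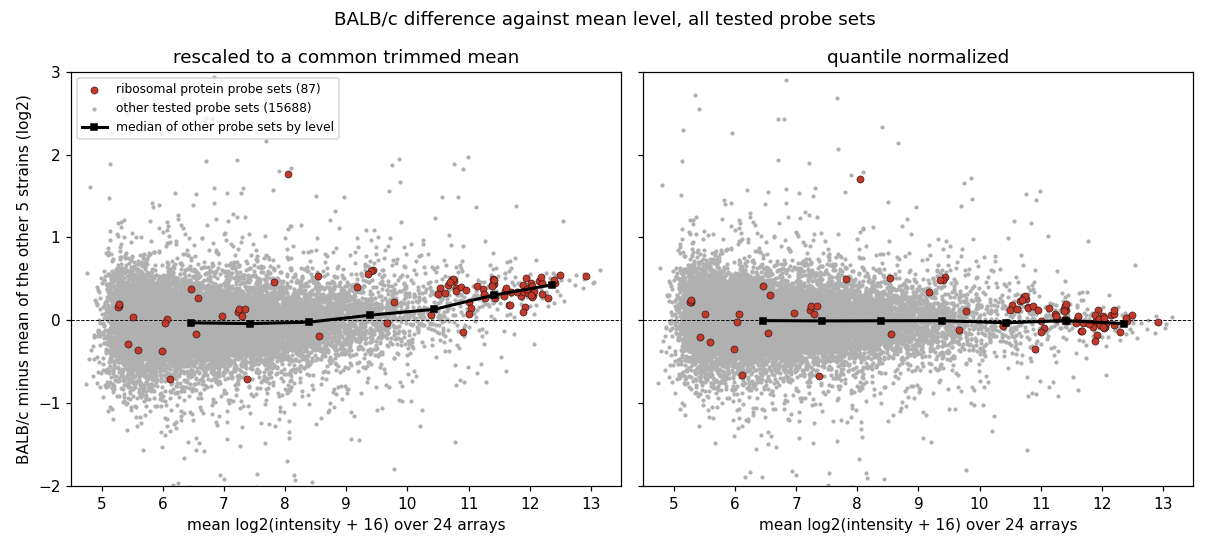
The BALB/c mean minus the mean of the other 5 strains (vertical axis, log2) is plotted against the mean log2 intensity for 87 ribosomal and 15688 other tested probe sets, with trimmed-mean scaling on the left and quantile normalization on the right. Bright probe sets of both kinds sit above 0 on the left and around 0 on the right. The others are all those outside the symbol rule, and 17 and 15 of them lie beyond the vertical range.

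**Figure D3:**
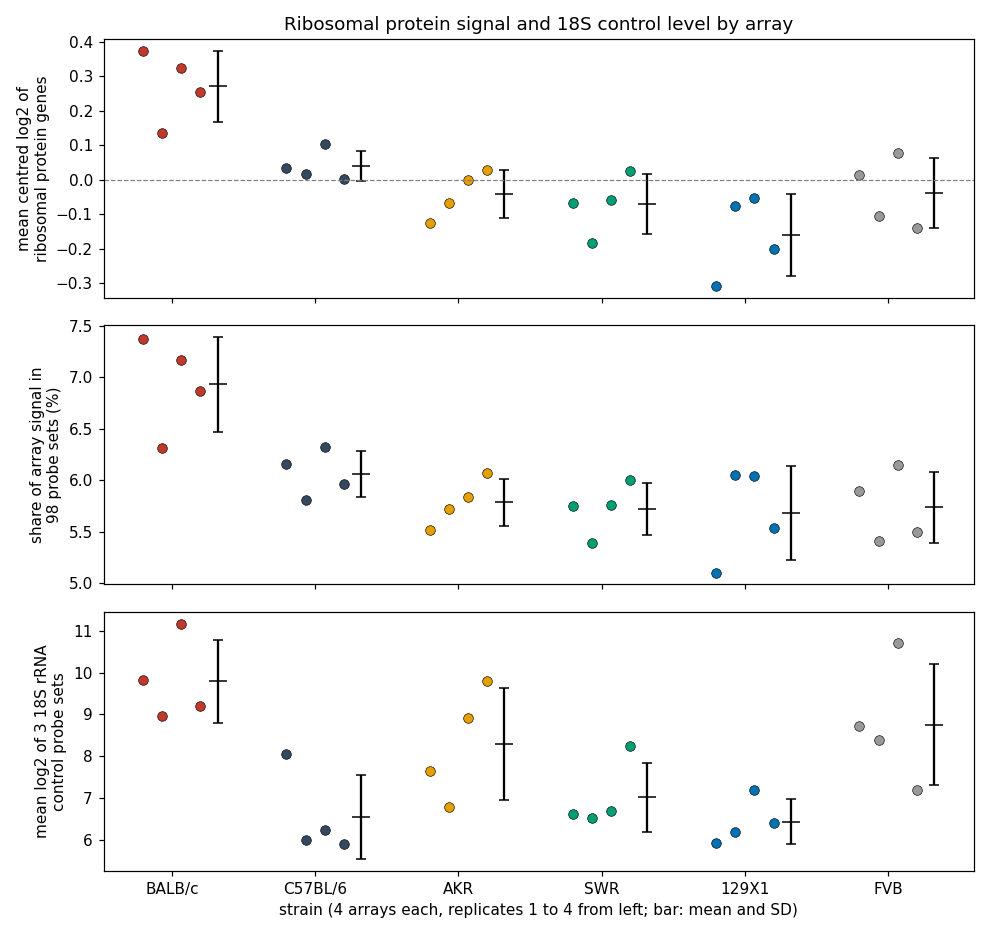
For each of the 24 arrays the panels give the mean centred log2 value of the 43 genes, the share of summed intensity in the 98 probe sets (percent) and the log2 level of the 18S control, with strains along the horizontal axis. The BALB/c arrays (0.14 to 0.37 in the first panel) lie above every other array in the first panel, meet the highest C57BL/6 array (6.32%) in the second and overlap FVB and AKR arrays in the third.

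In the 5 other strains fewer genes were called than in BALB/c, 0 to 7 of 43. C57BL/6 had 3 genes higher (5.12% of all genes) and 1 lower (5.66%), with a median of 0.044 (-0.021 over all genes). AKR had 1 higher (4.25%) and 4 lower (5.03%), with a median of -0.062 (0.027 over all genes), and without AKR replicate 4 it had 1 lower (2 without replicate 1). In 129X1 none was higher (6.37% of all genes, 0 ribosomal genes at an unadjusted p under 0.05 either) and 7 were lower (5.28%), with a median of -0.14 (0.0041 over all genes), and without 129X1 replicate 4, 4 were lower. SWR and FVB had 0 genes past the limma threshold in either direction, beside 5.5% and 5.05% of all genes for SWR and 3.49% and 3.51% for FVB. At an unadjusted p under 0.05, SWR had 1 gene higher and 6 lower, and FVB 3 higher and 6 lower. At that threshold 129X1 had 0 higher and 16 lower, AKR 3 higher and 9 lower, and C57BL/6 8 higher and 2 lower. The share of all genes or probe sets at that unadjusted threshold was not counted, so these counts have no background to be read against. The medians were -0.086 in SWR (-0.024 over all genes) and -0.069 in FVB (0.018 over all genes). The medians of 129X1, AKR, SWR and FVB stayed below 0 and those of BALB/c and C57BL/6 above 0 under the trimmed mean, quantile, cyclic loess and 18S settings, and 129X1 came to -0.038 with quantile normalization. Over all 87 probe sets, 54 were higher and 2 lower in BALB/c (8.3% and 10.6% of all probe sets), and 10 were higher and 2 lower in C57BL/6 (5.65% and 5.45%). AKR had 1 higher and 12 lower (4.67% and 5.12%), 129X1 1 higher and 13 lower (6.38% and 5.27%), and SWR 1 higher and 4 lower (5.52% and 5.04%). Without BALB/c replicate 1, 35 probe sets were higher in BALB/c. Without C57BL/6 replicate 3, 5 probe sets were higher in C57BL/6 (6 without replicate 1), without AKR replicate 4, 4 were lower in AKR (7 without replicate 1 or 3), and without 129X1 replicate 4, 8 were lower in 129X1. FVB had 0 higher (3.45%; 4 at an unadjusted p under 0.05) and 2 lower (3.65%). Since each comparison uses the other strains as its base, the 6 share their arrays, and the high BALB/c means enter the base of the other 5.

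**Figure D4:**
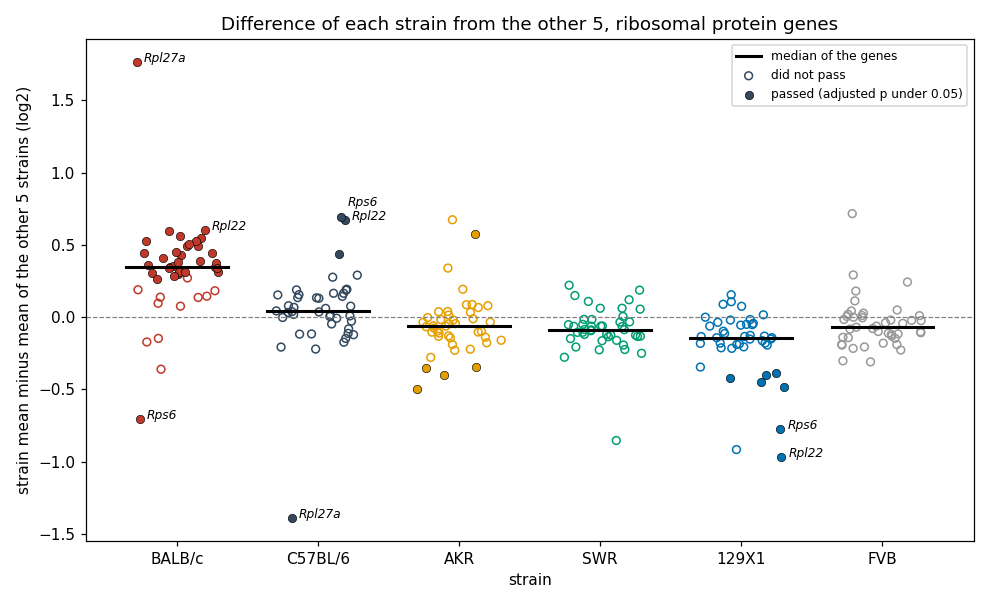
Each point is 1 of the 43 genes, placed at its strain mean minus the mean of the other 5 strains (log2, trimmed-mean scaling), filled where the adjusted p is under 0.05, and bars mark the medians. BALB/c is centred at 0.35 with 32 filled points (0.022 with quantile normalization). The other strains are centred between -0.14 (129X1) and 0.044 (C57BL/6), with 0 to 7 filled points.

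Among small-subunit genes the widest difference was that of Rps6, whose protein is the substrate of the S6 kinases downstream of mTORC1. Its probe set (1416142_at) read 85.1, 103, 73.1 and 105 in 129X1, and 96.0, 90.9, 87.0 and 107 in BALB/c. C57BL/6 arrays read 249, 243, 176 and 276. The 12 AKR, SWR and FVB arrays ran between 148 and 248. All 8 arrays of 129X1 and BALB/c were thus below all 16 others, while C57BL/6 overlapped AKR, SWR and FVB. Against the other 5 strains Rps6 fell in 129X1 by 0.77 ± 0.12 (SE, adjusted p = 9.17e-05), or 1.71-fold. In BALB/c it fell by 0.71 (adjusted p = 0.000218), and in C57BL/6 it rose by 0.70 (adjusted p = 0.000359), and each of these calls held under all 33 alternatives run. In the order of means, SWR lay above BALB/c (adjusted p = 0.00247), and the test did not tell BALB/c and 129X1 apart (adjusted p = 0.846). The second Rps6 probe set (1453466_at) read 4.04 to 28.0 and was not tested. The tested one is itself dim for the family, with a mean of 7.38, where 58 of the 87 ribosomal probe sets lie at 10 or above. Which part of the Rps6 message it reads was not determined.

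Rps25, which many viral and cellular internal ribosome entry sites need, differed in opposite directions in 129X1 and BALB/c. It read 53.9, 47.4, 75.2 and 43.8 in 129X1, and the other 20 arrays had a lowest, median and highest value of 58.2, 78.3 and 101. In BALB/c it read 101, 85.1, 91.1 and 99.8. The 129X1 arrays overlapped the lowest of the others. The 129X1 difference was -0.40 (adjusted p = 0.013), lost without 129X1 replicate 2 (or 4) and with the 18S covariate, and that of BALB/c was 0.38 (adjusted p = 0.0119).

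Rps7, which binds Mdm2, read 5663, 4390.3, 5048 and 5974 in BALB/c, against a lowest, median and highest of 3011, 3634 and 4487 over the other 20 arrays. It rose by 0.51 ± 0.10 (adjusted p = 0.000566) with trimmed-mean scaling and its difference was 0.12 (adjusted p = 0.333) after quantile normalization. BALB/c was above C57BL/6, the next strain down (adjusted p = 0.0282).

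Of the 31 genes higher in BALB/c, 8 had all 4 BALB/c arrays above all 20 others, and they are named here after their values were seen. On the small subunit these were Rps18 (0.53), Rps29 (0.45) and Rps26 (0.44), and on the large subunit Rpl38 (0.55), Rpl41 (0.53), Rpl4 (0.35), Rpl7 (0.31) and Rpl10a (0.30). All of them are bright, with a mean of at least 10, where 44.3% of probe sets outside the symbol rule were called higher in BALB/c. The margin on the log2 scale was thin for Rps29 (12.672 against 12.671 on the highest other array) and Rpl7 (11.519 against 11.516). The share of all genes set apart in this way was not counted. Rps26, which lies at the exit of the message channel, read 3689.8, 3247, 3638 and 3454 in BALB/c, against 2213, 2615 and 2904 as the lowest, median and highest of the others. Its difference was 0.44 ± 0.07 (adjusted p = 5.6e-05) with trimmed-mean scaling, 0.12 (adjusted p = 0.182) with quantile normalization and 0.34 (adjusted p = 0.0249) with the 18S covariate. Rps18 read 6384, 6094, 6810.00 and 6041 in BALB/c, and at most 5202 elsewhere. Its difference of 0.53 (adjusted p = 0.000125) came to 0.12 (adjusted p = 0.244) after quantile normalization.

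Besides Rps6, Rps25, Rps7, Rps18 and Rps26, the small-subunit genes that passed the F test were Rps27l, Rps20, Rps28, Rps29, Rpsa and Rps4x, with gaps between strain means of 0.43 to 0.70. The 10 that did not pass were Rps10, Rps19, Rps15, Rps24, Rps14, Rps3a1, Rps27, Rps9, Rps3 and Rps2, at 0.16 to 0.51. Rps19, the gene most often mutated in Diamond-Blackfan anaemia, had a gap of 0.50 (adjusted p = 0.0736). Its mean was 0.29 above the others in C57BL/6 (adjusted p = 0.073) and differed by -0.31 in FVB (adjusted p = 0.0727). The gene with the narrowest gap of all 43 was Rps2, at 0.16 (adjusted p = 0.797), followed by Rpl12 at 0.29 (adjusted p = 0.591) and Rps3 at 0.31 (adjusted p = 0.177). Rps2 read 4567, 2937, 4393 and 4295 in BALB/c and between 3176 and 4287 on the other arrays. Its 3 higher BALB/c arrays lay above every other array and the remaining one below, and after quantile normalization the BALB/c mean was lower (-0.25, adjusted p = 0.0162).

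On the large subunit, Rpl27a had the widest gap of all 43 genes, 2.63, and also the widest spread within strains. It read 698, 720.4, 555 and 929 in BALB/c. In C57BL/6 it read 110.3, 117, 83.4 and 99.2, and in 129X1 118, 139, 165 and 137. In AKR it read 384, 137, 562 and 623, in FVB 613, 431, 584 and 132, and in SWR 118, 80.4, 125 and 348. AKR and FVB thus each had 3 arrays far above the C57BL/6 level and 1 near it, SWR had 1 far above and 3 near it, and the SDs of these strains were 0.94, 0.97 and 0.82. BALB/c was higher by 1.77 ± 0.33 (adjusted p = 0.000507) and C57BL/6 differed by -1.39 (adjusted p = 0.0065), and in the order of strain means no step between neighbours passed the test. With the 18S level as a covariate the differences were 0.80 in BALB/c (adjusted p = 0.202) and -0.77 in C57BL/6 (adjusted p = 0.136). The 18S control was itself high in BALB/c, as given above. The second Rpl27a probe set (1419799_at) read 0.793 to 9.19 and was not tested.

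Rpl22, whose loss in mice blocks the development of alpha-beta T cells, was lowest in 129X1. On its first probe set (1416603_at) it read 352, 412, 367 and 386 in 129X1, against a lowest, median and highest of 480.04, 714 and 1317 on the other 20 arrays. All 4 arrays lay below all others, a difference of -0.97 ± 0.13 (adjusted p = 1.98e-05), or 1.95-fold lower. It read 1019, 1086, 1248 and 722 in C57BL/6 and 992, 764, 1317 and 849.99 in BALB/c. These strains were higher than the others by 0.67 (adjusted p = 0.00145) and 0.60 (adjusted p = 0.00266). In the order of means, the step from BALB/c down to SWR (adjusted p = 0.0261) and that from AKR down to 129X1 (adjusted p = 0.0108) passed the test, and the steps between C57BL/6 and BALB/c and among SWR, FVB and AKR did not. The 129X1 and C57BL/6 calls held in all 33 alternatives, and that of BALB/c in 32.

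The second Rpl22 probe set (1448398_s_at) ordered the strains otherwise. C57BL/6 read 539, 509.8, 534 and 459, all above the other 20 arrays, whose lowest, median and highest were 257, 333 and 439.7, a difference of 0.59 ± 0.10 (adjusted p = 0.000176). In 129X1 it read 338, 419, 257 and 346, a difference of -0.11 (adjusted p = 0.533). In BALB/c the difference was -0.19 (adjusted p = 0.173). The high level in C57BL/6 was therefore read by both probe sets, and the low level in 129X1 and the high one in BALB/c by 1 of them.

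Rpl38, which mouse embryos need to translate several Hox messages, read 8748, 6977, 7765 and 8152 in BALB/c, against 4595, 5359 and 6613 as the lowest, median and highest elsewhere. Its difference of 0.55 ± 0.08 (adjusted p = 6.26e-05) came to 0.066 (adjusted p = 0.57) after quantile normalization and 0.41 (adjusted p = 0.0286) with the 18S covariate. Rpl41, which encodes a very short basic peptide, read 10725, 9919, 9271 and 12406 in BALB/c, against 5866, 7039 and 9217 elsewhere. The gap between the lowest BALB/c array and the highest other array was small, and the difference of 0.53 (adjusted p = 0.00179) turned to -0.020 (adjusted p = 0.871) after quantile normalization. Rpl37, another protein that binds Mdm2, was higher in BALB/c by 0.56 (adjusted p = 0.00291) and differed by -0.38 in 129X1 (adjusted p = 0.0498), a call held by 8 of 33 alternatives. Its BALB/c arrays read 1094, 827, 944 and 736, overlapping the others, which reached 814.

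Rpl35, which lies at the tunnel through which the new peptide leaves, was highest in BALB/c and lowest in AKR. It read 4114, 2914, 3795 and 3743 in BALB/c, and the other 20 arrays had a lowest, median and highest of 1907, 2498 and 3464. In AKR it read 1907, 2326, 2513 and 2181, overlapping the other strains. The differences were 0.49 in BALB/c (adjusted p = 0.000533) and -0.35 in AKR (adjusted p = 0.0169), the second lost without AKR replicate 1 (or 4) and after quantile normalization. Rpl11, the Mdm2-binding protein of the large subunit, read 2273, 1921, 2518 and 1970.02 in BALB/c and was higher there by 0.35 (adjusted p = 0.0115), a call held by 28 of 33 alternatives.

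Rpl13a, which human monocytes release from the ribosome to silence inflammatory messages, was lowest in AKR. Its brightest probe set (1455485_x_at) read 2292, 2794, 2516 and 2771 in AKR, against 2967, 3395 and 4315 as the lowest, median and highest of the other 20 arrays. All 4 AKR arrays lay below the rest, a difference of -0.40 ± 0.09 (adjusted p = 0.00388) that held in all 33 alternatives, and C57BL/6, the next strain up, was above AKR (adjusted p = 0.0352). Of the 4 genes lower in AKR, Rpl22l1 is given with the paralogs below, Rpl35 stands above, and Rps20 is named after its values were seen. Rps20 read 1575, 1668, 1566 and 1639 in AKR, all below the other 20 arrays (1752 to 2914), a difference of -0.34 (adjusted p = 0.0227).

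Rpl14 was the single gene higher in AKR. It read 58.4, 53.2, 55.7 and 40.2 in AKR and 44.6, 51.1, 50.6 and 39.5 in C57BL/6, and the BALB/c arrays, at 29.1, 16.1, 43.0 and 12.1, overlapped both. The 12 SWR, 129X1 and FVB arrays lay between 16.9 and 32.2, below every AKR and C57BL/6 array. The difference was 0.57 ± 0.13 in AKR (adjusted p = 0.00593), held by all 32 alternatives fitted. Of the 16 arrays of the 4 remaining strains, 14 were at or under their own 40th percentile. In C57BL/6 it was 0.43 (adjusted p = 0.0325), lost without C57BL/6 replicate 1 (or 2, or 3) and with the 18S covariate.

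The remaining large-subunit genes that passed the F test were Rpl27, Rpl37a, Rpl4, Rpl6, Rpl7 and Rpl10a, besides the paralogs Rpl22l1 and Rpl7l1, and the first 6 had gaps of 0.40 to 0.53. Rpl39, Rpl19, Rpl8, Rpl7a and Rpl12 did not pass, with gaps of 0.29 to 0.58. Rpl39 was nevertheless lower in 129X1, at 91.1, 109.8, 118 and 81.7 against 99.7, 139 and 219 as the lowest, median and highest elsewhere, a difference of -0.48 (adjusted p = 0.0161). Its 129X1 arrays overlapped the lower ones of the other strains.

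Among the paralogs, Rpl22l1 encodes the protein closest to Rpl22, and in mice Rpl22 represses it. It read 1084, 759, 1142 and 813 in BALB/c, against 385, 629.7 and 837 as the lowest, median and highest of the others. In AKR it read 491, 569, 537 and 385, and both strains overlapped the rest. It was higher in BALB/c by 0.59 (adjusted p = 0.000841) and lower in AKR (-0.50, adjusted p = 0.00723), the AKR call being lost without AKR replicate 4 (adjusted p = 0.0695). In 129X1, where the first Rpl22 probe set was lowest, Rpl22l1 read 654, 822, 799.6 and 542, within the range of the other strains. In BALB/c the first Rpl22 probe set and Rpl22l1 were both higher.

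Rps27l, the paralog of Rps27 that p53 induces, was lower in 129X1 on each of its 3 probe sets. On the brightest (1423254_x_at) it read 1128, 1103, 1129 and 1144 in 129X1, against 1123, 1562 and 2007 as the lowest, median and highest elsewhere, with SWR replicate 3 the only other array at that level. The difference was -0.45 ± 0.09 (adjusted p = 0.00157), held by all 33 alternatives. The probe set 1450925_a_at read 962, 972, 979 and 902 in 129X1 and at least 1048 elsewhere, a difference of -0.55 ± 0.08 (adjusted p = 6.34e-05). The remaining one (1435429_x_at) read 979, 1053, 1075 and 1022 in 129X1 and at least 1145 elsewhere, a difference of -0.56 (adjusted p = 0.000333). On these 2, no array of another strain came down to the 129X1 level. Rps27 itself did not pass the F test, with a gap of 0.34 (adjusted p = 0.491).

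Rpl7l1, a paralog of Rpl7 with a part in ribosome assembly, read 109, 118, 116 and 104 in 129X1 on its brighter probe set (1426386_at), against 105, 157 and 196 elsewhere. Its difference was -0.42 (adjusted p = 0.00306), lost with the 18S covariate (adjusted p = 0.0586). The other probe set (1452049_at) differed by 0.21 in 129X1 (adjusted p = 0.336), the opposite sign. Rpl3l, the striated muscle paralog of Rpl3, Rpl39l, the testis paralog of Rpl39, and Rps4l, a gene like Rps4x, each had 1 probe set and none was tested. They read 0.956 to 17.8, 0.460 to 14.7 and 1.35 to 6.78 over the 24 arrays. The other 8 untested probe sets belonged to 7 genes that another probe set also read.

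**Figure D5:**
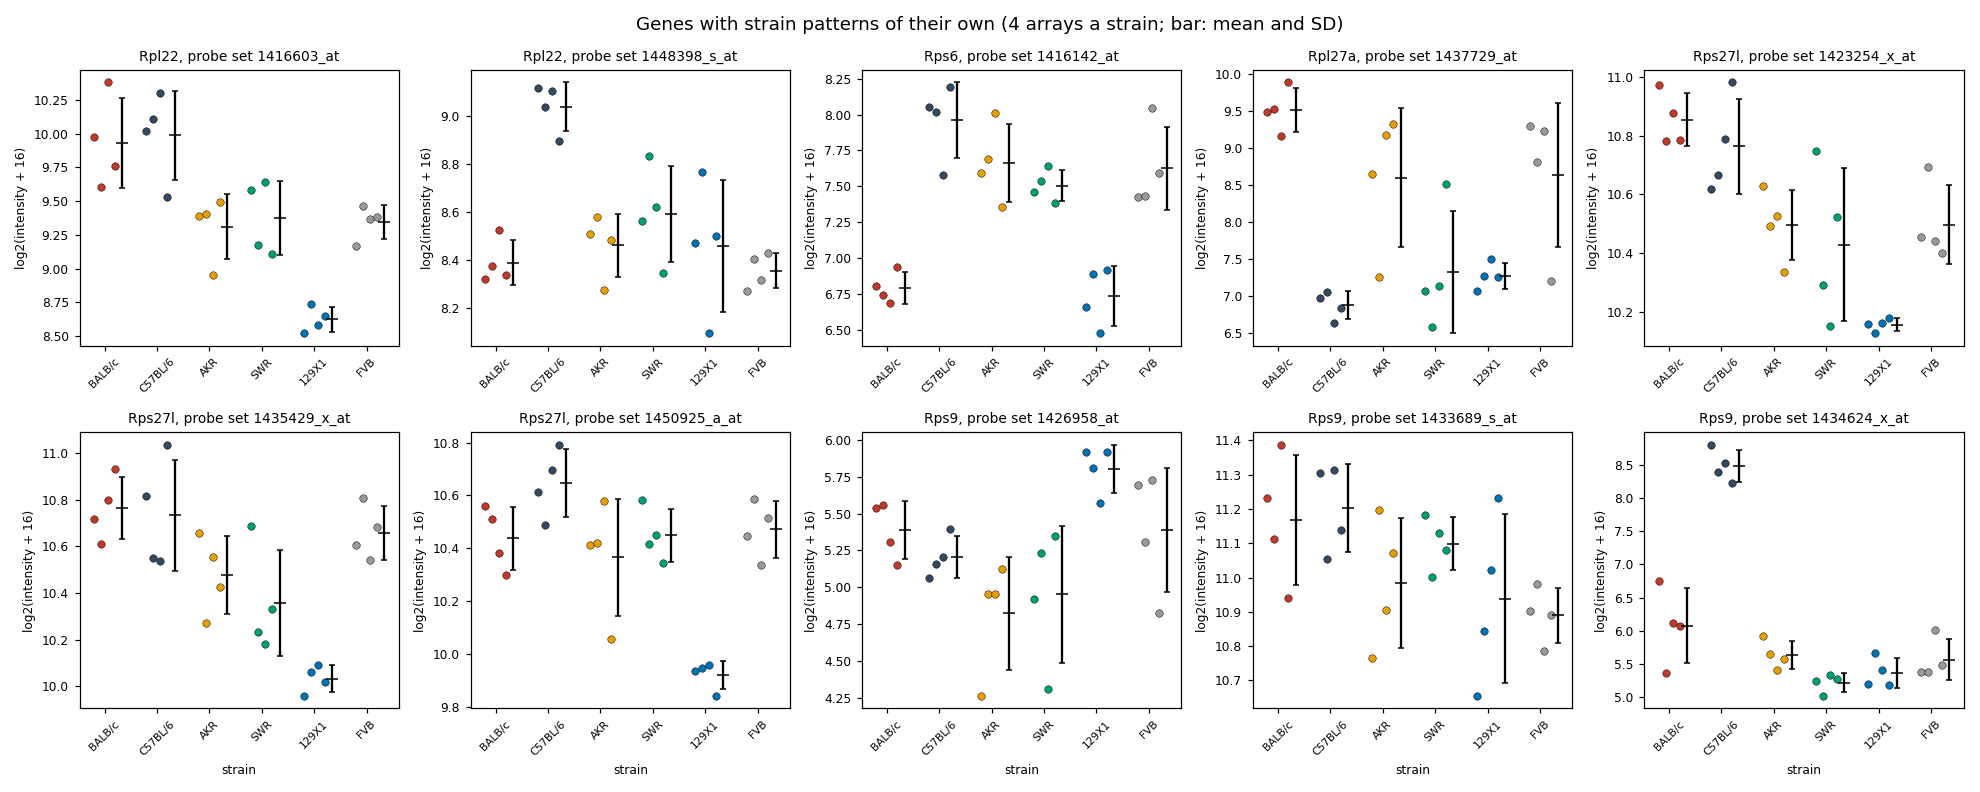
Points give log2(intensity + 16) on each of the 24 arrays, with strains along the horizontal axis and bars for mean and SD, for Rpl22 (2 probe sets), Rps6, Rpl27a, Rps27l (3 probe sets) and Rps9 (3 probe sets). The 129X1 arrays are the lowest for Rpl22 1416603_at (intensity 352 to 412) and for 2 of the Rps27l probe sets, and the C57BL/6 arrays stand apart for Rps9 1434624_x_at (284 to 431) and overlap other strains for Rps9 1433689_s_at.

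Probe sets of 1 gene did not always order the strains alike. Of the 19 genes with at least 2 tested probe sets, the 5 whose probe sets disagreed most were Rps9, Rps24, Rpl13a, Rpl41 and Rpl22. Their widest gaps between centred strain means were 2.49, 0.93, 0.82, 0.75 and 0.71. Rps14, Rps15 and Rps29 were at the other end, at 0.10, 0.10 and 0.11. Of the 87 tested probe sets, 40 carry the suffix s_at or x_at, which marks probes that can also match other transcripts, and this gene family has many near-identical processed copies in the genome.

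Rps9, a small-subunit protein that binds ribosomal RNA early in assembly, had 3 tested probe sets. The probe set 1434624_x_at read 431, 322, 355 and 284 in C57BL/6, against 16.4, 26.5 and 91.9 as the lowest, median and highest of the other 20 arrays. All 4 C57BL/6 arrays lay far above the rest, by 2.92 ± 0.16 on the log2(intensity + 16) scale (adjusted p = 5.06e-12). Of the other 20 arrays, 13 were at or under their own 40th percentile. The size depends on the added constant, at 3.31 with 4 and 2.08 with 64. Of the rest, 3 BALB/c arrays were highest, at 91.9, 53.4 and 51.1, and the fourth BALB/c array read 25.3. The brightest Rps9 probe set (1433689_s_at) read 2516, 2109, 2532 and 2237 in C57BL/6, against 1596, 2049 and 2662 elsewhere, a difference of 0.19 (adjusted p = 0.241), and did not pass the F test (adjusted p = 0.175). The probe set 1426958_at read 44.4, 40.2, 31.6 and 44.5 in 129X1, against 3.18, 20.3 and 37.0 elsewhere, a difference of 0.65 (adjusted p = 0.0107). Of the 20 arrays of the other strains, 18 were at or under their own 40th percentile, the exceptions being FVB arrays. It passed the filter of 4 arrays only through 129X1, so the test of 129X1 is no independent support for that difference. On this probe set C57BL/6 differed by -0.067 (adjusted p = 0.86). The large C57BL/6 value was thus read by 1 of 3 probe sets.

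Rps24, a small-subunit gene of Diamond-Blackfan anaemia, had 5 tested probe sets. In BALB/c the dim 1455195_at read 30.1, 24.9, 43.2 and 24.3, against 28.7, 59.1 and 101 elsewhere, and differed by -0.71 (adjusted p = 0.000464). In the same strain 1453362_x_at read 3756, 2745, 3713 and 3348, against 1668, 2544 and 3735, and was higher by 0.41 (adjusted p = 0.0116), a call held by 28 of 33 alternatives and lost without BALB/c replicate 1 (or 3), with quantile and cyclic loess normalization and with the 18S covariate. SWR showed the reverse, 0.54 on 1455195_at (adjusted p = 0.00883, lost without SWR replicate 4) and -0.44 on 1453362_x_at (adjusted p = 0.0137, lost without SWR replicate 1, or 2, and with the 18S covariate). Of the other 3, 1436064_x_at was higher in BALB/c (0.34, adjusted p = 0.0135, and -0.011 after quantile normalization), and 2 had no call in any strain.

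Rpl13a had a dim probe set (1433928_a_at) that was higher in C57BL/6, at 271, 196, 225 and 201 against 96.0, 126 and 207 elsewhere. The difference of 0.71 (adjusted p = 0.000249) held in all 33 alternatives, and only BALB/c replicate 3 among the other arrays reached the C57BL/6 level. The probe set 1417608_a_at was lower in C57BL/6 (-0.27, adjusted p = 0.0437, held by 15 of 33 alternatives) and in AKR (-0.28, adjusted p = 0.0382). AKR was thus lower on 2 of the 4 Rpl13a probe sets, and C57BL/6 had a call in each direction. For Rpl41, the BALB/c difference was called on 1 of 4 probe sets, and the other 3 did not pass the F test (adjusted p = 0.071, 0.11 and 0.159).

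Ribosomal proteins whose names fall outside the symbol rule also differed between strains. Of Rplp0, Rplp2 and Fau, 2 passed the F test. Rplp0, a protein of the stalk that recruits elongation factors, was lower in 129X1 (-0.50, adjusted p = 0.000827) and AKR (-0.45, adjusted p = 0.00322), and higher in C57BL/6 (0.40, adjusted p = 0.0071). Rplp2, of the same stalk, was lower in 129X1 (-0.26, adjusted p = 0.0434). Fau, which encodes Rps30 fused to a ubiquitin-like protein, was higher in BALB/c by 0.70 (adjusted p = 5.49e-06) with trimmed-mean scaling. It is bright, at 12.21 in BALB/c and 11.52 in the mean of the other strains. Of probe sets outside the symbol rule from 11 to 12, Fau among them, 57.5% were called higher in BALB/c, with a median of 0.30.

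Among 21 genes of translation elongation and other TOP messages, 15 passed the F test, beside 35% of all genes. C57BL/6 had 8 higher and 0 lower (5.12% and 5.66% of all genes), with a median of 0.21, led by the host genes of small nucleolar RNAs Snhg6 (0.87, adjusted p = 0.000169), Gas5 (0.75, adjusted p = 1.65e-06) and Snhg1 (0.44, adjusted p = 0.0243). BALB/c had 6 higher, among them the elongation factor Eef1a1 (0.45), the initiation factor subunit Eif3k (0.39) and Tpt1 (0.39), and 2 lower, Gas5 (-0.63) and Hnrnpa1 (-0.45), beside 8.2% and 9.16% of all genes. Eef1a1 and Tpt1 lie above 12 on the log2 scale. Of the 36 probe sets outside the symbol rule from 12 upwards, which may include ribosomal ones, 77.8% were called higher in BALB/c. Their median difference was 0.43 with trimmed-mean scaling and -0.039 after quantile normalization. Gas5 was also lower in 129X1 (-0.51, adjusted p = 0.000271), so that Gas5 and Rps6 were each called lower in BALB/c and 129X1 and higher in C57BL/6. FVB had 4 lower (3.51% of all genes), with Eif3k at -0.42, and 129X1 had 2 lower (5.28%). AKR and SWR each had 1 lower (5.03% and 5.05%), Snhg6 (-0.80) and Eif3e (-0.23).

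Of 41 tested genes of ribosome biogenesis 8 passed the F test, and of 15 genes of RNA polymerase I, which transcribes the large ribosomal RNA precursor, 4, both smaller shares than the 35% of all genes. The genes named from these lists are single calls and say nothing of the lists. In BALB/c the biogenesis list had 3 higher (8.2% of all genes), among them the H/ACA particle proteins Nhp2 (0.51) and Nop10 (0.47). It had 1 lower there (9.16% of all genes), Rrs1 (-0.71), which was higher in C57BL/6 (0.58). SWR had 4 lower (5.05% of all genes), with Utp3 (-0.77), Nop10 (-0.53) and Gnl2 (-0.45) at the largest sizes. In 129X1 3 were higher (6.37%), and AKR had 2 in each direction (4.25% and 5.03%). C57BL/6 had 1 in each direction (5.12% and 5.66%), and FVB 0 by limma (3.49% and 3.51%). The shared subunit of polymerases I and III, Polr1d, was higher in C57BL/6 (0.50, adjusted p = 0.000177) and lower in 129X1 (-0.47, adjusted p = 0.000359) and FVB (-0.38, adjusted p = 0.00453).

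Of 11 tested regulators of ribosomal protein synthesis 4 passed the F test, near the 35% of all genes. Eif4ebp1, the repressor of cap-dependent initiation that mTORC1 inactivates, was lower in AKR (-1.25, adjusted p = 1.67e-07) and higher in BALB/c (0.56), FVB (0.46) and C57BL/6 (0.40). Rheb, the activator of mTORC1, was higher in AKR (0.32) and lower in BALB/c (-0.39). Tsc2, which restrains Rheb, was higher in 129X1 (0.32) and lower in BALB/c (-0.26), and Myc was higher in SWR (0.30) and lower in AKR (-0.26).

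The mitochondrial ribosomal proteins are a separate set that serves the ribosome inside mitochondria. Of 74 tested genes 21 passed the F test, a smaller share than the 35% of all genes. BALB/c had 12 higher and 2 lower (8.2% and 9.16% of all genes), with a median of 0.10, led by Mrpl46 (0.66), Mrpl2 (0.65) and Mrps24 (0.53), with Mrps6 lower (-0.36). C57BL/6 had 7 higher (5.12% of all genes) and 0 lower, with the same median of 0.10. SWR had 1 higher and 7 lower (5.5% and 5.05% of all genes), and AKR 1 higher and 4 lower (4.25% and 5.03%). FVB had 1 higher and 2 lower (3.49% and 3.51%), and 129X1 0 higher and 3 lower (6.37% and 5.28%), the last with Mrps6 at -0.67.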

How the data were processed

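Expression was measured on Affymetrix MOE430A arrays with biotin-labelled cRNA from 10 ug of total RNA. The deposited values are linear intensities from MAS5, per the submitters' processing notes, and its version and settings are not given in the sources used here. Each array was rescaled to the common 2% trimmed mean and log2(intensity + 16) was taken from the deposited intensities. The 64 control probe sets were left out, and 6851 dim probe sets fell under the filter. limma 3.58.1 in R 4.3.3 was fitted to 15775 probe sets over 24 arrays (18 residual degrees of freedom), giving moderated F tests and two-sided tests of each strain's mean minus the average of the remaining 5 strain means and of all 15 pairs, adjusted by Benjamini-Hochberg over all tested probe sets. The code was tested on simulated data. Gene names came from the platform annotation.

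A gene is represented by its tested probe set with the highest mean. Genes are named by rule: the 12 widest F-tested ranges, the 2 largest called differences per strain and direction, paralogs and their partners, Rps19, Rpl11 and Rps6 for their known roles, the 5 with the most discordant probe sets and the 3 narrowest ranges. Pathway lists name at most 3 genes a strain and direction. Members and lists were chosen with earlier results of these data known. Alternatives were the deposited scale, quantile normalization, pseudocounts of 4 and 64, other filters, the mean of a gene's probe sets, omission of s_at and x_at probe sets, a replicate block and omission of each array. Cyclic loess and the 18S covariate were chosen after seeing the data. Same-numbered arrays of different strains did not vary together on average (mean correlation 0.0053 over 60 pairs, against -0.0017 over 180 pairs of unlike number). Single same-numbered pairs ran from -0.21 to 0.15, and those of unlike number from -0.17 to 0.26. Such means cannot show whether some arrays were handled together.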

Additional observations from a re-analysis of the deposited data

Results flagged for a closer look

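Within a strain of 4 arrays, 1 array lay far from the other 3 (Dixon's 95% criterion) in 12 of 216 combinations of strain and named probe set, 5.56%, where chance gives about 1 in 20. Rps3 (1435151_a_at) had 3 of them, with 129X1 replicate 1 at 11.26 (others 11.58 to 11.64), BALB/c replicate 2 at 11.49 (others 11.90 to 11.97) and C57BL/6 replicate 3 at 11.89 (others 11.66 to 11.70), all on the log2 scale. BALB/c replicate 2 was also low for Rps2 (1431766_x_at), at 11.53 beside 12.07 to 12.16. Rpl13a (1433928_a_at) had 2, with AKR replicate 2 at 7.43 (others 6.81 to 6.91) and BALB/c replicate 3 at 7.80 (others 7.12 to 7.24). Rps24 had 2, with 129X1 replicate 2 at 11.56 on 1453362_x_at (others 11.13 to 11.18) and AKR replicate 3 at 8.99 on 1456628_x_at (others 9.55 to 9.67). Rpl41 (1454639_x_at) stood at 6.55 in AKR replicate 4 (others 5.14 to 5.37). Rpl35 (1434231_x_at) stood at 11.09 in FVB replicate 2 (others 11.27 to 11.28), Rps7 (1419364_a_at) at 11.56 in SWR replicate 2 (others 11.77 to 11.79) and Rpl7l1 (1426386_at) at 7.65 in FVB replicate 4 (others 7.51 to 7.53).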

How the results depend on the processing

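Of 65 calls of named probe sets, 29 kept direction and threshold under each alternative fitted (14 of 22 F calls and 15 of 43 strain calls). Scaling moved the most. Quantile normalization left 15 genes passing the F test, 5 genes and 10 probe sets higher in BALB/c (8 genes called, median 0.022), 3 genes called in AKR, 1 in FVB and a median of -0.038 in 129X1. It turned the BALB/c sign of Rpl41 1455578_x_at (-0.020), Rps24 1436064_x_at (-0.011) and Rps2 1431766_x_at (-0.25). Its split of genes higher and lower was 2 and 7 in 129X1 (0 and 7 with the trimmed mean), 1 and 2 in AKR (1 and 4) and 5 and 3 in BALB/c (31 and 1). Cyclic loess gave 36 probe sets and 16 genes passing the F test, 5 genes and 12 probe sets higher in BALB/c (7 called, median 0.078) and a 129X1 median of -0.021. The 18S covariate gave 36 probe sets and 16 genes passing, 5 genes and 7 probe sets higher in BALB/c (6 called, median 0.20), 3 genes called in 129X1 and 2 in FVB. Shares of all genes called under cyclic loess, the 18S covariate and the deposited scale were not counted. The share of all genes passing the F test under quantile normalization was not counted either. With the intensities as deposited 22 genes passed the F test. In BALB/c 21 were then higher and 3 lower, with a median of 0.24. A pseudocount of 64 gave 8 called genes in AKR and 3 in FVB, the filter on all 24 arrays 2 in FVB, and the mean of a gene's probe sets 1 in SWR and 2 in FVB. Without s_at and x_at probe sets, 27 probe sets passed the F test, 26 were higher in BALB/c, 7 genes were called in C57BL/6, 1 in SWR and 1 in FVB, fewer probe sets being tested. The cause of the other moves was not tested.

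Leaving out each array in turn gave 21 to 29 genes and 43 to 59 probe sets passing the F test, the lowest of both without BALB/c replicate 1. Genes higher in BALB/c ranged over 21 to 31 and probe sets over 35 to 56 (21 and 35 without BALB/c replicate 1), and genes called there over 22 to 33. Called genes ranged over 4 to 8 in 129X1 (4 without 129X1 replicate 4), 3 to 7 in AKR (3 without AKR replicate 1), 3 to 5 in C57BL/6, and 0 to 1 in both SWR and FVB. Probe sets lower ranged over 0 to 4 in FVB (0 without FVB replicate 1, 2 or 4, and 4 without C57BL/6 replicate 4) and 2 to 5 in SWR (2 without SWR replicate 2). Medians ranged over 0.31 to 0.41 in BALB/c, 0.033 to 0.068 in C57BL/6, -0.097 to -0.039 in AKR, -0.11 to -0.037 in SWR, -0.20 to -0.078 in 129X1 and -0.11 to -0.025 in FVB. With the replicate number as a block, 57 probe sets and 29 genes passed the F test and 30 genes were higher in BALB/c. For dim probe sets such as Rpl14, signal near background limits the size of a change, and 4 arrays a strain limit what smaller differences could be called.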

Other observations

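Another 101 probe sets name a ribosomal protein gene among several symbols, and no gene can be named from them. Of these, 95 were tested and 56 passed the F test, beside 36.4% of all probe sets. In BALB/c 56 were higher and 3 lower (8.3% and 10.6% of all probe sets), with a median difference of 0.32 (limma, trimmed-mean scaling). In SWR 0 were higher and 9 lower (5.52% and 5.04%), and in C57BL/6 6 were higher and 0 lower (5.65% and 5.45%). AKR (4.67% and 5.12%) and FVB (3.45% and 3.65%) each had 0 higher and 4 lower, and 129X1 had 2 higher and 4 lower (6.38% and 5.27%). They were not counted under quantile normalization, which left 10 of the single-symbol probe sets higher in BALB/c. The median was 0.07 in C57BL/6, and these probe sets share arrays and sequence with those of the single-symbol genes.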
